A study of Mus musculus with 8 samples.

Results

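The albumin gene family of the mouse was followed through all libraries of an experiment in which caspase-8 was silenced in AML12 cells. The family was taken as the rows Alb, Afp, Afm and Gc, which are 4 of the 34945 named genes in the table, and all 4 passed the filter that left 14154 genes to test. AML12 is an established, non-tumorigenic hepatocyte line derived from the liver of a mouse carrying a human TGF-alpha transgene, grown here in DMEM/F12 medium with serum. The control group (Scr) was 4 cultures given a scrambled siRNA and labelled wild type, and the other group (siCasp8) was 4 cultures given Casp8 siRNAs and labelled as a Casp8 knockdown, in each case at 40 nM with a lipid reagent for 48 hours. All 8 libraries come from this 1 cell line in culture. Since the family was chosen for how it behaved between Scr and siCasp8, its values in that contrast are given as a description and without a test.

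The proteins of this family are carriers in blood plasma that the liver makes and secretes. Serum albumin (Alb) is the main protein of plasma and carries fatty acids, bilirubin, metals and drugs. Alpha-fetoprotein (Afp) is its fetal counterpart, made by yolk sac and fetal liver, silenced after birth and made again in regenerating liver and in liver tumours. Afamin (Afm) binds vitamin E and keeps lipid-modified Wnt proteins soluble. Gc encodes the vitamin D-binding protein, which carries vitamin D metabolites and also captures actin released from damaged cells. Gc is not to be mixed up with the gene whose symbol is Dbp, a transcription factor of the albumin promoter that is described with the other regulators.

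The 4 genes lay on chromosome 5 (GRCm38, GENCODE M21). Gc ran from 89417522 to 89457898 on the minus strand, Alb from 90460897 to 90476602, Afp from 90490737 to 90508907 and Afm from 90518932 to 90553543, the last 3 on the plus strand. The intergenic gap was 14.1 kb between Alb and Afp and 10.0 kb between Afp and Afm, while Gc stood 1003 kb away from Alb. The main transcripts of Alb, Afp and Afm each had 15 exons, with 608, 605 and 608 codons. Gc had 13 exons and 476 codons.

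Promoters are shown because the choice of the family did not use their sequence. Each sequence is a stretch of 200 bases that ends 21 bases before the RefSeq start site (GRCm38.p6), read in the direction of the gene. Capitals mark GTTAAT on either strand, called the shared word in the plot of matches. It is 1 of 5 words searched, which were listed as known words of liver or general promoters, and it is capitalised because, of the 5, only it was in all 4 genes within the 150 bases before the start, so its presence there is a description. The stretches are chr5:90460650-90460849 (plus strand), chr5:90490494-90490693 (plus strand), chr5:90518729-90518928 (plus strand) and chr5:89457919-89458118 (minus strand).
Alb: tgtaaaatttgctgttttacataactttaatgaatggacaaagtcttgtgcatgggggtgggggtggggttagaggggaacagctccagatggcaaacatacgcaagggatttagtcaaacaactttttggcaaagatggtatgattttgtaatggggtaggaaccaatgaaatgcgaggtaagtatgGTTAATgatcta
Afp: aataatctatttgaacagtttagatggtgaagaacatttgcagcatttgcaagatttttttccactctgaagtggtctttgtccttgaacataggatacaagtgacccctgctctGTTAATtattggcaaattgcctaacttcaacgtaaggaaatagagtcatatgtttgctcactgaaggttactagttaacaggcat
Afm: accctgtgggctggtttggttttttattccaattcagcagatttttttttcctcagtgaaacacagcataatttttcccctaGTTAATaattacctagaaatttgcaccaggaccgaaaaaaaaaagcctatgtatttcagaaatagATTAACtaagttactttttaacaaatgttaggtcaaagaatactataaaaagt
Gc: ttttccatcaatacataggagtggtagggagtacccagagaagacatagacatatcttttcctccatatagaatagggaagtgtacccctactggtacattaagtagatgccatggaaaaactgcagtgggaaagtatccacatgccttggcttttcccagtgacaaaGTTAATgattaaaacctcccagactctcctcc

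All 4 windows from 250 bases before to 50 bases after the start held GTTAAT on at least 1 strand, and so did 7.10% of the 32817 RefSeq promoter windows of that length. The match began 32 bases before the RefSeq start in Alb, 52 in Gc and 105 in Afp. The RefSeq starts of Alb, Afp and Afm differ from the GENCODE gene starts given above, so distances from those would differ. Afm held the word at 138 bases and again, on the other strand, at 73 bases before the start. Within the 150 bases before the start, all 4 genes again held the word, as did 3.71% of windows. The C/EBP word TTNNGNAA was in all 4 whole windows and in 40.7% of all windows, and the NF-Y word CCAAT was in all 4 and in 37.4% of all windows. In Alb a C/EBP match and a CCAAT match began 75 and 56 bases before the start, and CCAAT occurred again on the other strand at 15 bases. TATAAA was found in Afp and Afm and in 13.6% of windows. The FOXA word TGTTTAC was in none of the 4 windows and in 3.65% of all windows. Both strands were searched, the C/EBP matches of Afm at 85 and 84 bases overlap, and a match to letters is not a bound site.

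**Figure D1:**
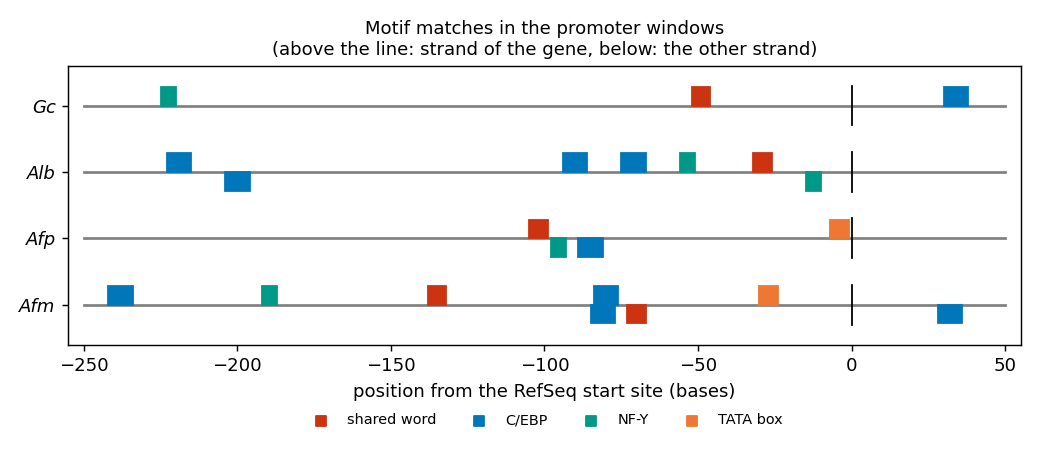
Matches to 4 sequence words in the promoter windows of Gc, Alb, Afp and Afm; the horizontal axis is the position in bases from the RefSeq start site (vertical tick), with matches on the strand of the gene above each line and those on the other strand below. Every window holds at least 1 match to the shared word (red), which begins between 138 and 32 bases before the start.

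The silenced gene was checked first. Casp8 was 3936, 3995, 4134 and 3825 in Scr replicates 1 to 4 and 1374, 1431, 1627 and 1489.7 in siCasp8 replicates 1 to 4, in the deposited normalized unit that is used for every value here. The highest siCasp8 library was well below the lowest Scr one (log2 difference -1.43, SE 0.0525, limma adjusted p = 5.94e-09). The line's hepatocyte identity was mixed by its markers: of 13 hepatocyte markers, 9 passed the filter, with Hnf4a, Apob, Krt8 and Krt18 at means of 6535 to 44957 in Scr, while Apoa1 and Apoh stayed under 20 and Cps1, Asgr2 and Serpina1e under 2 in each group mean. The hepatocyte markers summed to 119202 to 128132 in Scr and 111809 to 116838 in siCasp8, with 3 called higher and 2 lower. The 2 lower were the abundant Krt8 (mean 42814 to 34570) and Apob (26046 to 21951). The 3 higher included Ttr (2495 to 6852) and Fgb (10.2 to 60.5), so the sum does not describe each marker. Of the markers of other cells, Cdh5 and Lyve1 of endothelium and Adgre1, Clec4f and Marco of macrophages were at 0 in all 8 libraries. The summed level of the 9 cholangiocyte markers was 120063 to 129262 in Scr and 135299 to 142631 in siCasp8, carried mainly by Spp1, with Epcam near 0, 2 called higher and 3 lower. The 7 stellate cell markers summed to 126 to 185 in Scr and 105 to 184 in siCasp8, with Pdgfrb and Lrat at means under 3. Of these markers Des was called higher (12.1 to 45.3, limma adjusted p = 0.00518) and Col1a1 lower (117 to 77.9, limma adjusted p = 0.046). The 7 macrophage markers summed to 2826 to 3029 and 2189 to 2347, carried by Cd14 and Csf1r, which were the 2 called lower, and the 6 endothelial markers to 186 to 536 and 178 to 301, carried by Pecam1. The part of these cells in the results was not tested. Estimated depth was 30.7 to 51.8 M reads in Scr and 50.3 to 56.8 M reads in siCasp8, so the groups also differ in depth.

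The 4 genes went separate ways. Mean Alb was 42.0 times as high in siCasp8 as in Scr, mean Afm 3.18 times, mean Gc 1.37 times, and mean Afp 1.00 times. The groups did not overlap for Alb, Afm and Gc, all higher in siCasp8, and overlapped for Afp. Over all tested genes, 37.5% had groups that did not overlap. In bulk RNA, more cells that express a gene and more RNA per cell cannot be told apart.

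Alb was close to silent in the control cells. Its value was 70.5, 94.4, 90.0 and 90.5 in Scr replicates 1 to 4 and 3948, 3686, 3379.8 and 3492 in siCasp8 replicates 1 to 4. The lowest siCasp8 library was 35.8 times the highest Scr library. The group means were 86.4 ± 10.7 and 3626 ± 249 (SD, n = 4 each), and the difference on the log2(value + 1) scale was 5.38 (SE 0.0924). Among tested genes, this ranked 2 of 14154, counted from the highest difference with its sign kept. The gene that encodes the chief product of the liver ranked between 11263 and 11570 of the 14154 tested genes in the Scr libraries and between 2815 and 3281 in the siCasp8 libraries. At the estimated depths, Alb rested on 49.0 to 104 reads in Scr and on 3949 to 4706 reads in siCasp8.

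Afm, the last gene of the block, was higher by a smaller factor. Its value was 299.95, 309.9, 351.8 and 300.1 in Scr replicates 1 to 4 and 1024.0, 1024.7, 1025.0 and 941.3 in siCasp8 replicates 1 to 4. The siCasp8 libraries lay close together, and the lowest of them was 2.68 times the highest Scr library. The means were 315 ± 24.7 and 1004 ± 41.6 (SD, n = 4 each). The log2 difference was 1.67 (SE 0.0697), which ranked 99 of 14154 from the highest. After upper quartile rescaling, which moves the median of all genes by 0.10, the difference was 1.77.

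Gc was by far the most abundant of the 4 in every library. Its value was 39058, 41096, 44397 and 40594 in Scr replicates 1 to 4 and 53760.3, 58723, 60101 and 53198 in siCasp8 replicates 1 to 4. The means were 41286 ± 2248 and 56446 ± 3479 (SD, n = 4 each), and the log2 difference was 0.45 (SE 0.0502) or 0.55 after upper quartile rescaling. Its rank among tested genes was 70 to 93 in Scr and 39 to 44 in siCasp8, so this carrier was among the 100 highest rows of the table in all libraries. Although the log2 difference of Gc was small, its mean value differed by 15159 units, compared with 3540.1 for Alb and 688 for Afm.

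Afp, which lies between Alb and Afm, showed no such difference. Its value was 37.7, 32.0, 29.1 and 19.2 in Scr replicates 1 to 4 and 33.2, 32.5, 26.7 and 25.7 in siCasp8 replicates 1 to 4. The siCasp8 range lay inside the Scr range. The means were 29.5 ± 7.73 and 29.5 ± 3.87 (SD, n = 4 each) and the log2 difference was 0.033 with an SE of 0.242, the widest of the 4. Afp rested on 21.7 to 26.2 estimated reads in Scr and 31.2 to 41.5 in siCasp8. With estimated depth as a covariate the difference was 0.63, and with single libraries left out it ran from -0.15 to 0.16, so its direction is not fixed by these libraries.

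**Figure D2:**
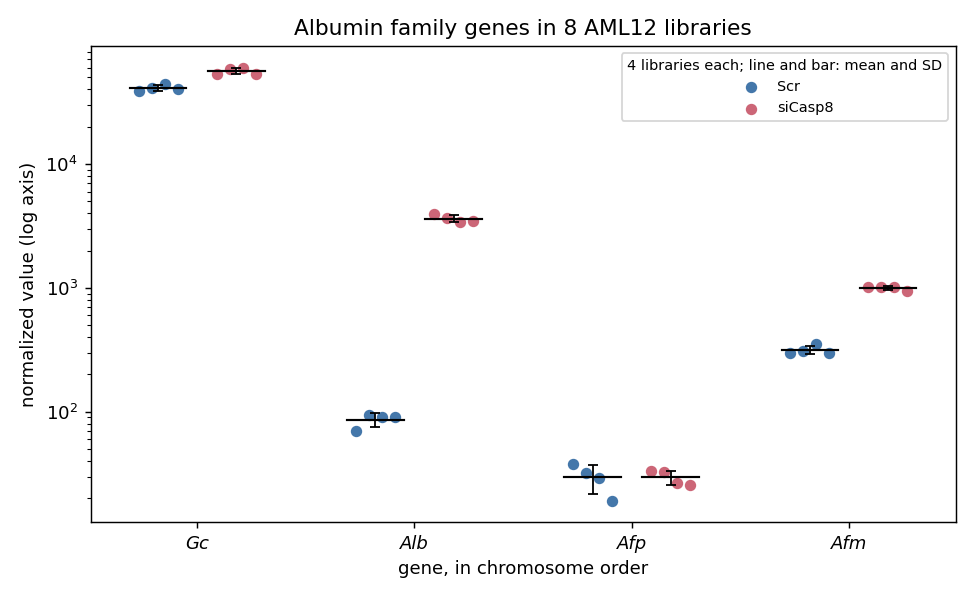
Normalized value (log axis) of Gc, Alb, Afp and Afm in 4 Scr (blue) and 4 siCasp8 (red) libraries, in chromosome order; points are libraries in replicate order, and lines with bars are the mean and SD. The groups are apart for Gc, Alb and Afm and overlap for Afp, which has a mean of 29.5 in each group.

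Levels of different genes were compared per kilobase of the main transcript, since a longer transcript yields more reads. In Scr the order was Gc (22924 ± 1248 per kb), Afm (155 ± 12.1), Alb (42.5 ± 5.28) and Afp (14.3 ± 3.75). In siCasp8 it was Gc (31341 ± 1932), Alb (1783 ± 122), Afm (493 ± 20.4) and Afp (14.3 ± 1.87). Neighbouring genes in each order had ranges that did not overlap, so Alb and Afm exchanged places. Per length, Afm was between 3.28 and 4.25 times Alb in the Scr libraries and between 0.259 and 0.303 times Alb in the siCasp8 libraries. Gc was 492 to 626 times Alb in Scr and 15.4 to 20.1 times Alb in siCasp8. Alb was 1.899 to 4.79 times its fetal counterpart Afp in Scr and 115 to 138 times Afp in siCasp8.

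Of the summed length-scaled level of the 4 genes, Gc made up 99.1% in Scr and 93.2% in siCasp8. Alb made up 0.183% ± 0.0194 of it without the knockdown and 5.32% ± 0.552 with it (SD, 4 libraries each). The share of Afm was 0.668% ± 0.0197 and 1.47% ± 0.0616. Together the 4 genes held 0.0920% ± 0.00476 of the table's total value in Scr and 0.138% ± 0.00692 in siCasp8.

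Spread between libraries differed among the 4 genes. The coefficient of variation in Scr and siCasp8 was 5.44% and 6.16% for Gc, 7.83% and 4.15% for Afm, 12.4% and 6.86% for Alb, and 26.2% and 13.1% for Afp. The order in Scr follows the level, with the least abundant gene varying most.

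Against the whole table, 5689 genes or 40.2% were called at an adjusted p under 0.05, with 2739 higher and 2950 lower. Upper quartile rescaling turned the split to 4471 up and 1665 down, and with the depth covariate 2636 genes were called. For Gc, 8.92% of tested genes had a higher log2 difference, and for Afm 0.692%. For Afp it was 44.6%, which places it near the middle of the table.

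**Figure D3:**
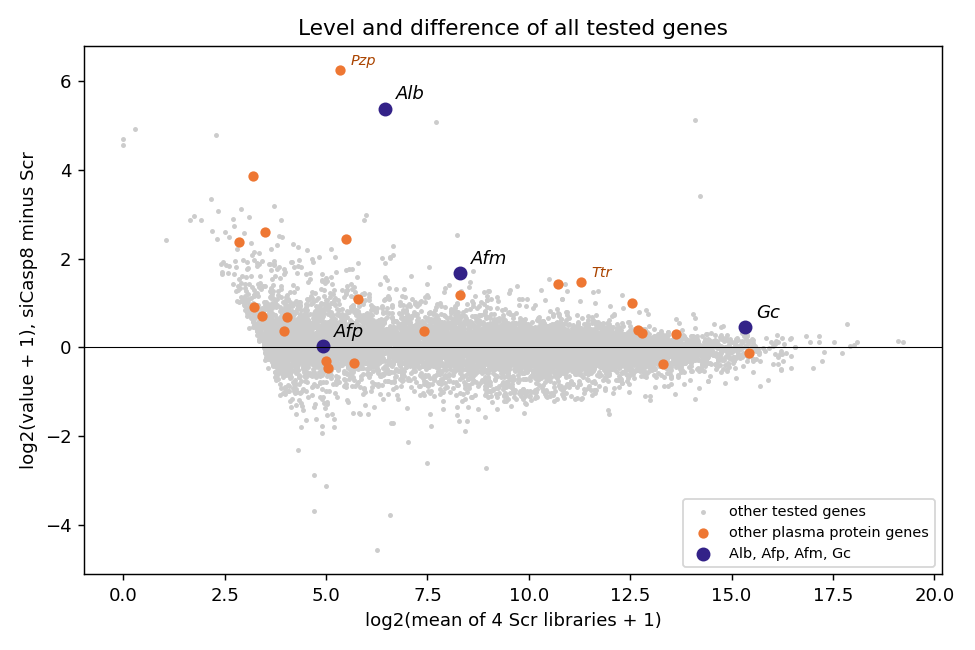
Each point is 1 tested gene; the horizontal axis is log2 of its mean over the 4 Scr libraries plus 1 and the vertical axis is the difference of log2(value + 1), siCasp8 minus Scr. Alb (5.38) and Pzp (6.25) are the 2 highest points, Afm is at 1.67, Gc is at the high end of the level axis with 0.45, and Afp is at 0.033; orange points are other plasma protein genes.

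The genes whose profile over the 8 libraries was most like each member were found by the root mean square difference (RMSD) of log2(value + 1), after subtraction of the Scr mean, among genes with a proper symbol. For Alb, the nearest were Tdo2 (RMSD 0.441), Pzp (0.650) and G6pc (0.673), with Cfhr2 further off (1.47). Tdo2 encodes the tryptophan-degrading enzyme of liver and was listed at 0 in 3 of the Scr libraries and between 27.5 and 50.1 in siCasp8. At Scr values this low, and for G6pc (Scr mean 3.88), the distance to Alb depends on the 1 added before the log. Likeness was not computed with another added value. Pzp encodes a plasma protease inhibitor and G6pc the glucose-releasing phosphatase. Only 1 gene lay within 0.5 of Alb, whereas 150 lay within 0.5 of Afm. The nearest to Afm were the transporter gene Abca6 (0.0882), the cytochrome P450 gene Cyp2c68 (0.109) and the adhesion receptor gene Adgrf1 (0.150). For Gc the nearest were Cd47 (0.0411), the valine-degrading enzyme gene Aldh6a1 (0.0417) and Rufy3 (0.0424). Rufy3 also lies on chromosome 5, 766 kb from Gc. However, 165 genes lay within 0.1 of Gc and 1439 within 0.2, so those named are hardly nearer than many others. For Afp the nearest were Gpsm3 (0.123), Tbx15 (0.135) and Rps12l1 (0.144), and Rps12l1 is a near copy of another ribosomal protein gene whose reads may be shared. These genes were picked on the same 8 libraries, and their likeness is a description.

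The chromosome around the family was then examined. The GRCm38 annotation placed 38 named genes of the table within 1 Mb of a member, of which 22 could be tested. Of these, 7 were higher and 9 lower in siCasp8 by the limma test with adjustment over all genes, a share of 72.7% called against 40.2% over all tested genes. Their median log2 difference was -0.070, compared with 0.00252 over all tested genes. The split was 9 higher and 7 lower after upper quartile rescaling. With the depth covariate 10 were called, where 2636 of all tested genes were called. With 1 library left out, 11 to 13 were called, fewer than with all 8 libraries, where 4799 to 5743 of all tested genes were called. The highest log2 difference among the 22 was 0.95, compared with 5.38 for Alb and 1.67 for Afm.

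The called genes nearest to the block of Alb, Afp and Afm went in opposite directions. Ankrd17, an ankyrin repeat gene 94.3 kb before Alb, was 14020.2, 13787, 14798 and 14499 in Scr and 11920.3, 11565, 12727 and 11763 in siCasp8. It was lower in 4 of 4 siCasp8 libraries (log2 difference -0.25, SE 0.0383, limma adjusted p = 0.000224). Rassf6, a gene of the Hippo pathway 49.5 kb beyond Afm, was 774, 741, 841 and 866 in Scr and 1049, 1134, 1119 and 1063 in siCasp8. It was higher in 4 of 4 (0.44, SE 0.0611, limma adjusted p = 0.000112). Gm9958, between Ankrd17 and Alb, was not called (-0.039, limma adjusted p = 0.82). Gc stood in a sparse region, where the bicarbonate transporter gene Slc4a4, 178 kb away, fell from 8820.2 ± 292 to 6285 ± 192 (-0.49, limma adjusted p = 7.34e-07).

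Beyond Rassf6 lie clusters of chemokine genes and of EGF family genes. Of the chemokine genes there, the neutrophil chemokine genes Ppbp and Cxcl5 fell, from 343 ± 32.0 to 91.3 ± 8.66 (log2 difference -1.899) and from 3160 ± 257 to 1791 ± 136 (-0.82). Cxcl15 rose from 21.95 ± 4.90 to 43.0 ± 5.89 (0.95), and Cxcl2 and Cxcl3 were not called (0.025 and -0.14). Of the EGF receptor ligand genes, Btc rose from 285 ± 16.4 to 505 ± 57.3 (0.82) and Ereg from 235 ± 28.3 to 324 ± 20.54 (0.47), the latter not called with the depth covariate (adjusted p = 0.0593). Further from Gc, Rufy3 rose (0.47), and Dck, the kinase gene of deoxycytidine salvage, and the Hippo pathway gene Mob1b fell (-0.58 and -0.31).

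Calls for 5 neighbours were near the threshold and were lost with some libraries left out. Cox18 (log2 difference -0.18, adjusted p = 0.0499) was lost without any 1 of the 8 libraries. Utp3 (0.13, adjusted p = 0.0413) was lost without any 1 library other than Scr replicate 3. Areg (0.45, adjusted p = 0.0438) was lost without each Scr library and without siCasp8 replicates 1 or 3. Adamts3 (-0.88, adjusted p = 0.0328), at means of 26.6 and 13.4, was lost without Scr replicates 1, 2 or 3 or siCasp8 replicates 1, 2 or 4. Cxcl1 (-0.21, adjusted p = 0.0301) was lost without Scr replicates 1 or 3 or siCasp8 replicates 2, 3 or 4. Adjusted p values in these sentences are those of limma over all tested genes, and over all alternatives they ran from 0.00421 to 0.844.

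**Figure D4:**
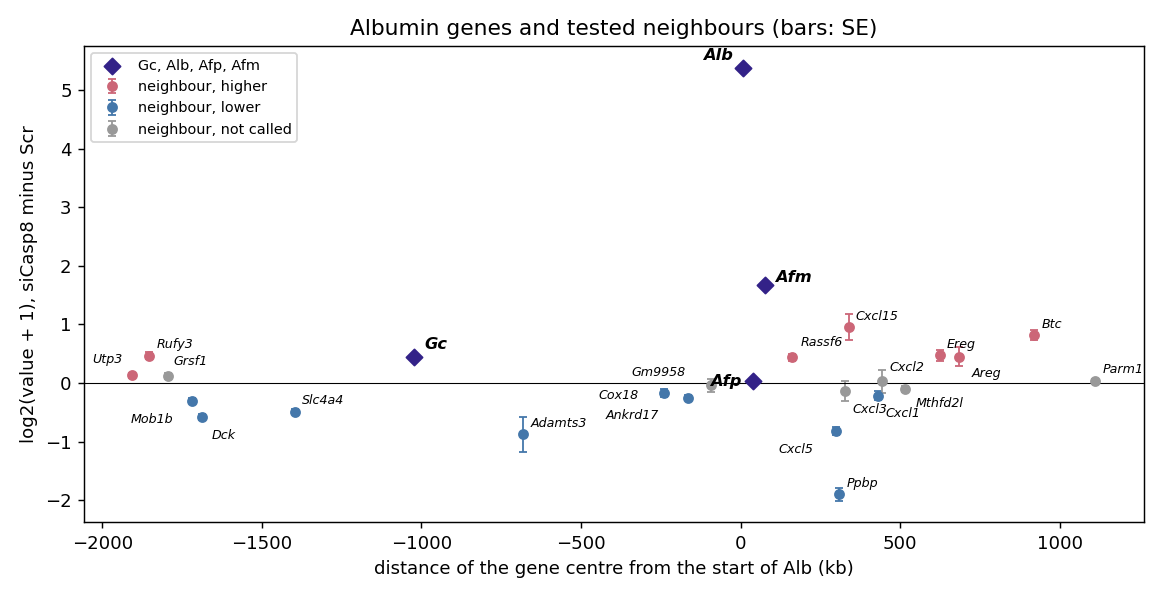
Difference of log2(value + 1), siCasp8 minus Scr, of the 4 albumin family genes (diamonds) and of 22 tested neighbours (circles, bars SE) against distance in kb of the gene centre from the start of Alb. Neighbours lie between -1.899 (Ppbp) and 0.95 (Cxcl15), while Alb is at 5.38 and Afm at 1.67.

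Transcription of Alb in liver is known to depend on C/EBP, FOXA, HNF4 and D-box factors, and Afp is known to be repressed after birth by Zbtb20 and Zhx2. Of 35 such regulators, 34 were tested, and 11 were higher, 5 lower and 18 not called, which is 47.1% called against the 40.2% of all tested genes. Their median log2 difference was 0.028. Upper quartile rescaling gave 16 higher and 3 lower. With the depth covariate 10 were called, where 2636 of all tested genes were called. The gene Foxa3, of the FOXA family of pioneer factors, was 374, 398, 385 and 392 in Scr and 645, 664, 628 and 606 in siCasp8. It rose by 0.71 (SE 0.0617, limma adjusted p = 2.38e-06), with every siCasp8 library above every Scr library. Its relative Foxa1 went the other way and fell from 1726 ± 35.0 to 1119 ± 85.9 (-0.63, limma adjusted p = 3.66e-06), and Foxa2 was not called (0.014, limma adjusted p = 0.794).

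The D-box genes Dbp and Nfil3 also moved apart. Dbp, the activator first found at the albumin promoter, rose from 251 ± 20.7 to 398 ± 31.7 (log2 difference 0.66, limma adjusted p = 8.92e-05). Nfil3, a repressor that binds the same D-box elements, fell from 1045 ± 20.9 to 628 ± 27.3 (-0.74, limma adjusted p = 6.02e-07). Of the other D-box genes listed, Tef rose from 2351 ± 291 to 2824 ± 89.7 (0.27, limma adjusted p = 0.0109). Hlf was under the filter. The homeodomain factor gene Onecut2 rose (0.42) and the nuclear factor I gene Nfib fell (-0.33), each apart from the other group in 4 of 4 libraries.

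A few further regulators are named after their values were seen, as known activators of liver genes or repressors of Afp. Cebpa, whose protein is a C/EBP factor, was 494, 557, 498 and 488 in Scr and 699.7, 666, 667 and 662 in siCasp8. It rose by 0.40 (SE 0.0631, limma adjusted p = 0.000271). The other C/EBP genes of the list, Cebpb (-0.21), Cebpd (0.22) and Cebpg (-0.034), were not called (limma adjusted p = 0.106, 0.17 and 0.572). Hnf4a was 6535 ± 430 and 6944 ± 106 and was not called (0.090, limma adjusted p = 0.132), though it was called higher after upper quartile rescaling (0.19, adjusted p = 0.00606), under quantile normalization and without Scr replicate 2. The Afp repressor genes Zbtb20 (5934 ± 581 and 5853 ± 366) and Zhx2 (1445 ± 145 and 1318 ± 39.0) were not called either (limma adjusted p = 0.872 and 0.141). The sign for Zbtb20 changed with the scaling.

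**Figure D5:**
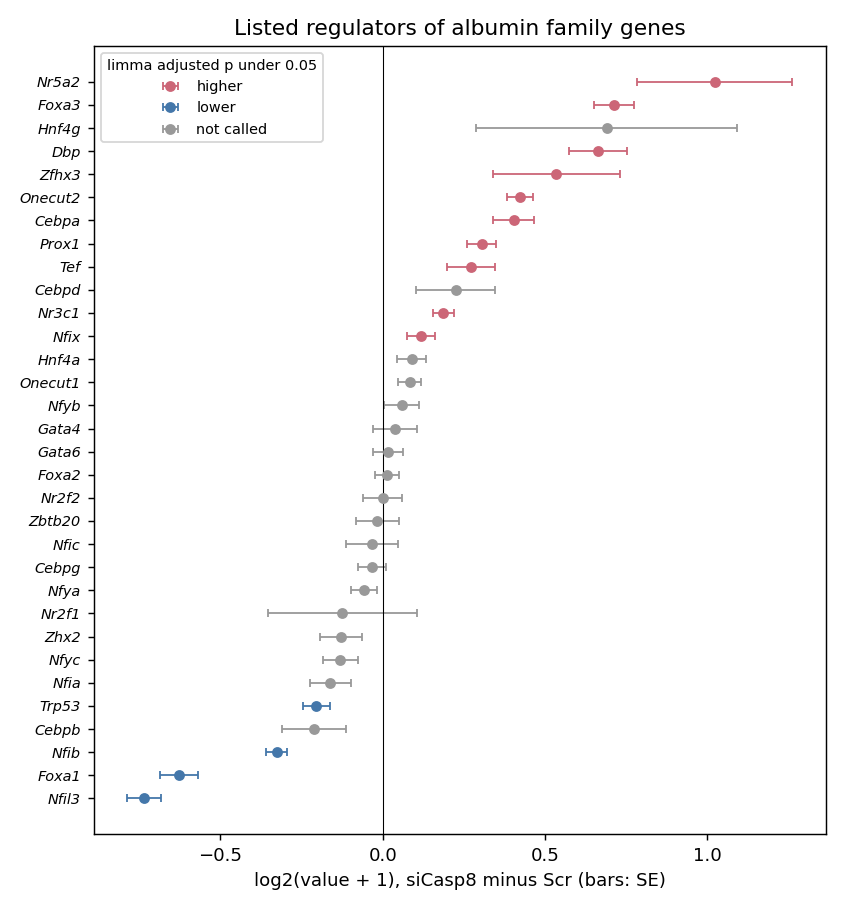
Difference of log2(value + 1), siCasp8 minus Scr, with its SE, for 32 of the tested regulators of albumin family genes, sorted by size; red, blue and grey mark genes higher, lower and not called by limma. Foxa3 (0.71) and Dbp (0.66) are near the top, and Foxa1 (-0.63) and Nfil3 (-0.74) are at the bottom.

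The partners that bind, recycle or use the cargo of these carriers changed in part. Of 18 listed genes, 15 were tested, with 5 higher, 4 lower and 6 not called, or 7 and 3 under upper quartile rescaling. The share called was 60.0%, against 40.2% of all tested genes, and the median log2 difference was 0.045. Fcgrt, which encodes a chain of the FcRn receptor that returns albumin from endosomes to plasma, rose from 565 ± 17.0 to 945 ± 41.3 (log2 difference 0.74, limma adjusted p = 8.24e-07). B2m, listed beside it, was lower, from 27121 ± 1212 to 24679 ± 1123 (-0.14, limma adjusted p = 0.0223). Vdr, the vitamin D receptor gene, rose from 270.0 ± 33.7 to 486 ± 40.8 (0.85), and Cyp27a1, an enzyme of sterol and vitamin D hydroxylation, rose from 646 ± 59.2 to 905 ± 33.6 (0.49). The endocytic adaptor gene Dab2 fell from 3057 ± 122 to 2102 ± 75.1 (-0.54) and Sparc, which encodes an albumin-binding matrix protein, from 11722 ± 674 to 8233 ± 463 (-0.51). Cubn, of the receptor that takes up albumin and the vitamin D-binding protein in kidney, fell from 116 ± 16.9 to 81.7 ± 8.76 (-0.50), a call lost with the depth covariate (adjusted p = 0.0655).

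The Alb row was next set beside 43 other plasma protein genes of liver. Of the 42 found in the table, 23 were tested and 19 had a mean under 10. Of the 23, 14 were higher, 1 was lower and 8 were not called, which is 65.2% called against 40.2% of all tested genes (19.4% higher and 20.8% lower), with a median log2 difference of 0.71 against 0.00252 over all tested genes. Pzp rose from 39.4 ± 5.15 to 3101 ± 607 (6.25), the thyroid hormone and retinol carrier gene Ttr from 2495 ± 176 to 6852 ± 178 (1.46), and Itih2, a hyaluronan-binding inhibitor chain, from 1691 ± 75.6 to 4563 ± 150 (1.43), with a limma adjusted p of at most 3.91e-09. The member that fell was Ambp (-0.38). Several abundant plasma proteins of liver stayed near 0, with Ahsg, Plg and Serpina6 at 0 in all 8 libraries. Apoa1 was at 14.6 and 18.9 and was not called (limma adjusted p = 0.357). The list was drawn up with earlier results of these data known, so its counts and p values are a description.

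Genes of mature hepatocytes and genes of fetal liver were counted beside Alb and Afp. Of 25 mature hepatocyte genes, 12 were tested, and 7 (58.3%) were higher, none lower and 5 not called, against 40.2% of all tested genes called and 19.4% higher. Their median log2 difference was 0.96. They include G6pc, which rose from 3.88 ± 2.45 to 122 ± 17.0, and Ttr, which like Apoa1 is also in the plasma protein list above. G6pc and Tdo2 (means of 0.226 in Scr and 35.6 in siCasp8) passed the filter only through the siCasp8 libraries, so they could count only as higher. With a minimum mean of 50, 5 were called, all higher. Of the 25, 13 were not tested, among them the urea cycle gene Cps1, and had means under 10. Of 15 fetal liver genes, 8 were tested, with 4 higher, 3 lower and 1 not called, which is 87.5% called against the same 40.2%. Of the rest, 6 had means under 10, among them Igf2, Gpc3 and Dlk1, and H19 was not in the table. With the depth covariate 2 were higher and 2 lower, where 2636 of the 14154 genes were called. Hmga2, Plag1 and Igf2bp3 rose (0.46, 0.56 and 0.22), and Peg3, Igf2bp1 and Cd24a fell (-0.31, -0.34 and -0.24). The calls for Plag1, Igf2bp3 and Igf2bp1 were lost with the depth covariate (adjusted p = 0.0905, 0.0875 and 0.0585).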

How the data were processed

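Poly-A RNA of 8 AML12 cultures was sequenced with Illumina TruSeq chemistry, per the labels' protocols. Tools listed in the submitters' processing notes are bcl2fastq 2.19, kallisto 0.44.0, DESeq2 and sleuth, with the builds GRCm38 and GRCh38. The authors deposited a normalized signal per gene symbol, which its name calls normalized counts from kallisto and DESeq2. The sources used here give no annotation. A line without a symbol (0.0481% to 0.0631% of a library) was left out. Totals were 44.1 to 45.6 M per library. Depth was taken from the value of 1 read (0.776 to 1.47), and 65.6% to 75.0% of low values lay within 0.1 of a whole read, so no count test was used. Genes with a mean of at least 10 were fitted with limma 3.58.1 (R 4.3.3), with a prior trend, on log2(value + 1), siCasp8 minus Scr, two-sided, with Benjamini-Hochberg adjustment over 14154 genes and calls under 0.05. The script was tested on simulated data. Differences are on the log2(value + 1) scale, which understates low genes. Members and lists were chosen with earlier results of these data known. Named genes are the members, Casp8, called neighbours within 1 Mb, the 3 called members of each list with the smallest adjusted p per direction, and the genes of most similar profile. Hnf4a, Cebpa, Zbtb20, Zhx2 and uncalled genes named beside them (Foxa2, Cebpb, Cebpd, Cebpg, Gm9958, Cxcl2, Cxcl3, Apoa1) were added after their values were seen. So were the differences of the markers Krt8, Apob, Fgb, Des and Col1a1 and of the listed genes B2m, Fga and Tef. Some genes that this rule names are not reported here. Libraries were assigned by title. The design text calls the 4 cultures of a group biological replicates, and nothing says that they came from separate passages or days. Alternatives covered the pseudocount, filter, scaling, prior trend, depth, replicate block and single libraries. Promoters are from RefSeq (GRCm38.p6) and matched all 4 members by symbol.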

Additional observations from a re-analysis of the deposited data

Results flagged for a closer look

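Values are given here where 1 of 4 libraries stood apart from the other 3, with a gap to the nearest of them, over the whole range, above Dixon's 95% critical value. This was so in 10 of 124 groups of 4, for 62 genes, and chance gives about 1 in 20. Among the albumin genes this was Afm in siCasp8 replicate 4, at 941.3 below the others at 1024.0 to 1025.0, a group in which 3 libraries agree to within 1 unit. Leaving that library out gave a log2 difference of 1.70 for Afm. Foxa1 was 992 in siCasp8 replicate 1, below 1146 to 1174 in the others. Cebpa was 557 in Scr replicate 2, above the others at 488 to 498, and 699.7 in siCasp8 replicate 1, above 662 to 667. Vdr was 547 in siCasp8 replicate 2, above 459.8 to 473, and Cyp27a1 was 558 in Scr replicate 1, below 666 to 684. Pzp was 31.8 in Scr replicate 3, below 41.4 to 42.9. Hmga2 was 6072 in siCasp8 replicate 4, below 6678 to 6776, and Cd47 was 5480.4 in Scr replicate 3, above 5024 to 5079.9. Tdo2 was 0.904 in Scr replicate 2 and 0 in the other 3 Scr libraries.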

How the results depend on the processing

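Alb ran from 5.29 to 5.48 over all alternatives, Afm from 1.65 to 1.77 and Gc from 0.42 to 0.55, and they stayed higher in siCasp8 in all of them. The moves beyond replicate spread were upper quartile rescaling for Afm (1.77) and Gc (0.55) and the depth covariate for Afp (0.63). Afp had no value with a minimum mean of 50. The depth covariate also lowered the calls to 2636 over all genes, 10 neighbours, 10 regulators and 4 fetal liver genes; depth differs between the groups, and the cause was not tested. Calls over all genes ran from 4799 to 5743 with single libraries left out. Zbtb20 changed sign to 0.084 after upper quartile rescaling, 0.026 under quantile normalization, 0.016 after total rescaling and 0.082 with the depth covariate, and lay between -0.088 and 0.022 with single libraries left out. Same-numbered Scr and siCasp8 libraries deviated together only weakly (correlations of 0.0785, 0.0442, 0.169 and 0.0554), though each library correlated best with its own number, so the replicate block served as an alternative: it called 6020 genes, 15 neighbours and 18 regulators, and lost the calls of Areg and Cox18 (adjusted p = 0.056 and 0.0809). Of 57 further genes followed through the alternatives, 34 kept both their sign and their side of the threshold, or stayed within replicate spread where untested, in all alternatives. Depth limits Afp, at 21.7 to 41.5 estimated reads.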

Other observations

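A pattern noticed in the siCasp8 libraries is given as values only, since 4 libraries are too few for a correlation. Ordered by remaining Casp8 (1374, 1431, 1489.7 and 1627 in replicates 1, 2, 4 and 3), Alb was 3948, 3686, 3492 and 3379.8. Pzp, singled out after its values were seen, had the same order, at 3921, 3189.8, 2716 and 2575. Ttr did not, at 6755, 7114, 6726 and 6811, nor did Afm, at 1024.0, 1024.7, 941.3 and 1025.0. Gc did not either, at 53760.3, 58723, 53198 and 60101. In the Scr libraries Alb showed no such order: with Casp8 at 3825, 3936, 3995 and 4134, Alb was 90.5, 70.5, 94.4 and 90.0.

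The lowest Afp value among the control libraries was in the deepest of them. Afp was 32.0, 37.7, 29.1 and 19.2 at 30.7, 31.6, 38.4 and 51.8 M reads, while its estimated reads stayed between 21.7 and 26.2. With estimated depth as a covariate, the log2 difference of Afp was 0.63.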
